A study of Mus musculus with 48 samples.

Results

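Heat shock and cold-inducible genes were followed in mouse colon as transcripts that are known to read out temperature and protein folding load. The group held 10 of the 55401 genes in the count table, chosen by symbol in GENCODE vM21: the heat shock proteins Hspa1a, Hspa1b, Hspa8, Hsph1, Hsp90aa1, Dnajb1, Hspd1 and Hspe1, and the cold-inducible RNA-binding proteins Cirbp and Rbm3. RNA from whole colon of 48 male mice was sequenced, 4 control and 4 Bmal1IEC-/- mice per time point. The 6 time points were CT1, CT5 and CT9 in the circadian day and CT13, CT17 and CT21 in the night. Control mice carried floxed Bmal1 alleles (Bmal1fl/fl) without Cre, and Bmal1IEC-/- mice carried the same alleles with Villin-Cre, whose promoter is active in intestinal epithelium, so that the other cells of the colon kept the gene. All were adult mice on a C57BL/6J background, single-housed with a running wheel and free access to food, and killed on the second day of darkness. The question was whether daily changes of the kind that body temperature brings reached the colon without the epithelial clock. Body temperature itself was not among the data analysed here.

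Heat shock proteins are chaperones that bind unfolded proteins and help them to fold. Heat shock factor HSF1 switches on the inducible members when cells warm or unfolded proteins build up, by binding inverted GAA repeats in their promoters. CIRBP and RBM3 go the other way: both RNAs are known to become more abundant with mild cooling and less abundant with warming. In nocturnal rodents, body temperature is higher in the active night than in the day, and cycles of this size are known to drive HSF1 and CIRBP in peripheral tissues even where local clocks are absent.

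Promoter windows of 7 of the 10 genes were in the RefSeq table for GRCm38.p6 (250 bases before and 50 after the start of transcription). Parts of them are shown here for the genes with sequence matches to heat shock elements, the kind of repeat that HSF1 binds. Binding was not measured. Capitals mark the GAA and TTC units that stand in GAANNTTC or TTCNNGAA, both of which read the same on the other strand. The windows of Hspa1a (chr17:34972157-34972276, minus strand) and its neighbour Hspa1b (chr17:34959239-34959358, minus strand) are the 120 bases before the start and differ at 1 base. Those of Hspe1 (chr1:55088053-55088082, plus strand) and Hsph1 (chr5:149636349-149636378, minus strand) are 30 bases around the marked units. Positions count from the RefSeq start. Hsph1 in GENCODE vM21, as counted here, begins at 149636376, so its marked units lie inside the annotated gene.
Hspa1a: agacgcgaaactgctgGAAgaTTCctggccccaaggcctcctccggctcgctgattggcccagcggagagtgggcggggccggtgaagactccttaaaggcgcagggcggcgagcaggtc
Hspa1b: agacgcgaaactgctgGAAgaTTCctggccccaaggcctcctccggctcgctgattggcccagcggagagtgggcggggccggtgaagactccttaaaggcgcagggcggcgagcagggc
Hspe1: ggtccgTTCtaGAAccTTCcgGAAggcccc
Hsph1: gtagaatctTTCtcGAAggctcgagaagaa

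GAANNTTC began 104 bases before the start in both Hspa1a and Hspa1b. In Hspe1, TTCNNGAA began at -89 and -79 and GAANNTTC at -84, giving a run of overlapping units. The Hspe1 stretch shown also lies inside the Hspd1 gene as annotated in GENCODE vM21, although the Hspd1 window itself did not hold these units. In Hsph1, TTCNNGAA began at -33. After the start, TTCNNGAA began at 37 and GAANNTTC at 42, which together gave 3 alternating units, not shown above. GAANNTTC stood in 7.86% and TTCNNGAA in 8.52% of all 32851 windows, either of them in 15.1%, and 3 or more alternating units in 0.603%. The E-box CACGTG, which the clock protein BMAL1 binds with CLOCK, stood in 7.15% of the windows, among them those of Hsph1 and Hspd1. Neither element was found in the windows of Dnajb1 and Cirbp. Hspa8, Hsp90aa1 and Rbm3 are named only.

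The total count per mouse lay between 3144997 and 4785844, and the 10 members held 0.275% of them on average. Levels are given as normalised counts, which are counts divided by DESeq2 size factors over the 48 mice. Tests used 46 mice, 24 control and 22 Bmal1IEC-/-, without the Bmal1IEC-/- mice SV384 and SV385 at CT1, because the scaling in the study's own rhythm values matched only that set. With these 2 mice, 24.7% of genes differed between genotypes at CT1 in edgeR, against 1.21% without them. Leaving them out also makes the Bmal1IEC-/- group at CT1 smaller, which lowers the power of the test. These 2 shares alone therefore cannot show whether SV384 and SV385 stood apart. With all 48 mice, every group had 4 mice. The shares at the other times were then 0.376% at CT5, 1.46% at CT9, 3.58% at CT13, 0.876% at CT17 and 0.328% at CT21. The cause of the larger share at CT1 was not tested. Arntl, the symbol of Bmal1, ranged in control mice from 15.8 at CT9 to 283 at CT1, and in the 22 Bmal1IEC-/- mice from 84.9 to 180.4. At CT1, SV384 and SV385 were at 105.5 and 97.2 in Arntl, against 170.9 and 180.4 in the other Bmal1IEC-/- mice. Every Bmal1IEC-/- mouse lay below every control mouse in Arntl at CT1 and CT21, and above every control mouse at CT9 and CT13. Summed epithelial markers (9 genes) lay at 13304 to 19953 CPM (counts scaled to a common library total) in control and 14199 to 19291 in Bmal1IEC-/- mice. Goblet cell markers lay at 14357 to 26050.0 and 14544 to 25742, smooth muscle markers at 3627 to 5775 and 3163 to 5371, and those of fibroblasts, immune cells, enteric neurons and glia, and adipose tissue were all detected, with exocrine pancreas markers at 0.8 or less. In bulk tissue, fewer cells of a type and less RNA per cell cannot be told apart.

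Counted per kb of exon, Hspa8 had the highest level, with a median of 975 normalised counts per kb over the 24 control mice (range 648 to 3961). Hspa8 encodes HSC70, the constitutive cytosolic chaperone of the HSP70 family. Next came the mitochondrial chaperonin gene Hspd1 with a median of 499.5 (378 to 862) and Hsp90aa1, the stress-inducible cytosolic HSP90, with 263 (158 to 979). Hspe1 had a median of 176, Rbm3 of 117, Cirbp of 69.9, Dnajb1 of 54.0 and Hsph1 of 40.9 on the same scale. The inducible HSP70 genes came last, Hspa1b with 8.87 (3.22 to 620.4) and Hspa1a with 3.997 (1.35 to 257). Hspa1a and Hspa1b share sequence in which reads may have gone uncounted, so their levels per kb may be too low. The ranges of every pair of neighbours in this order overlapped, so the order describes medians only.

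The inducible HSP70 genes Hspa1b and Hspa1a had the largest differences between night and day. In control mice, Hspa1b was at 13.6, 16.9, 18.9 and 28.7 normalised counts at CT9 and at 179.9, 376, 425 and 1739 at CT13. By CT17 it was at 19, 89.8, 117 and 137, and at CT21 at 25.7, 27.8, 40 and 41.6. The groups at CT9 and CT13 did not overlap, and mouse SV424 held the highest value at CT13. In Bmal1IEC-/- mice, Hspa1b was at 17.5, 20.3, 28.4 and 29.8 at CT9 and at 82.9, 102, 227 and 306 at CT13. It was at 55.6, 81.3, 81.9 and 158 at CT17 and at 21.4, 24.9, 25.6 and 93.6 at CT21. The step from CT9 to CT13 again separated the groups, and only SV470 was high at CT21.

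Hspa1a lies beside Hspa1b on chromosome 17 (ENSMUSG00000091971 at 34969190 to 34972156 and ENSMUSG00000090877 at 34956436 to 34959238, GRCm38) and encodes nearly the same protein. Of all 150-base windows of the Hspa1a transcript, 38.1% were identical in Hspa1b. For the Hspa1b transcript the share found in Hspa1a was 40.5%. Read pairs that lay wholly in such sequence match both genes equally. Counting required a mapping quality of 4 or more, so such pairs may be missing from both genes. Both levels may therefore be too low, and the split between the genes is uncertain. Hspa1a was at 77.6, 139, 147 and 764 normalised counts at CT13 in control and at 28.5, 29.6, 67.2 and 95.1 in Bmal1IEC-/- mice. In the day it stayed at 4.01 to 12 in control mice and at 0 to 18.4 in Bmal1IEC-/- mice, where 1 mouse had no read. With both genes summed, the night minus day difference was a log2 fold change of 2.82 in control and 2.11 in Bmal1IEC-/- mice.

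Hsph1 (ENSMUSG00000029657, chromosome 5, 149614287 to 149636376, GRCm38) encodes HSP110, which recharges HSP70 by exchanging its nucleotide. Hsph1 was at 117, 117, 150.3 and 394 normalised counts at CT9 and at 802, 1396, 1541 and 3189 at CT13 in control mice. Hsph1 in Bmal1IEC-/- mice was at 113, 173, 212 and 222 at CT9 and at 499, 576, 947 and 1029.8 at CT13. At both times the ranges of the genotypes overlapped, while the step between times separated the mice in each genotype. SV420 stood above the other control mice at CT9. From CT17 to CT21, Hsph1 went from 408, 678, 887 and 1054 to 257, 338, 341 and 350.1 in control mice and from 509, 596, 637 and 948 to 180.4, 429, 450.3 and 455 in Bmal1IEC-/- mice.

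Hspa8 (ENSMUSG00000015656, chromosome 9, 40800984 to 40810087) and Hsp90aa1 (ENSMUSG00000021270, chromosome 12, 110690605 to 110702728) had high day levels and were higher at night by smaller factors. Hspa8 was at 3396, 3402, 3505 and 3793 normalised counts at CT1, at 8339.8, 11524, 12272 and 17037 at CT13 and at 2786, 3489, 4209 and 4333 at CT21 in control mice. In Bmal1IEC-/- mice it was at 5389, 5442, 5958 and 6029.6 at CT1, where all 4 mice are given, at 6239, 6451, 9276 and 9392 at CT13 and at 3505, 4693, 5482 and 5689.8 at CT21. At CT1 every Bmal1IEC-/- mouse lay above every control mouse, and at CT13 the ranges overlapped. Hsp90aa1 followed the same course, from 622 to 1066 over the day to 1385, 2175, 2384 and 3847 at CT13 in control mice, and from 563 to 1034 at CT5 and CT9 to 1111, 1120.4, 1601 and 1707 at CT13 in Bmal1IEC-/- mice. At CT1 the 4 Bmal1IEC-/- mice were at 1247, 1312, 1352 and 1451, all above the control mice at 737, 795, 837 and 905. SV384 and SV385, left out of the tests, are among these Bmal1IEC-/- mice. Without them neither gene was called at CT1 (edgeR adjusted p = 0.0935 for Hspa8 and 0.181 for Hsp90aa1). With them, 24.7% of all genes were called there.

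Dnajb1 (ENSMUSG00000005483, chromosome 8, 83608193 to 83612653) encodes HSP40, the co-chaperone that hands clients to HSP70. At CT13 it was at 250.3, 280.4, 287 and 546 normalised counts in control and 246, 293, 308 and 310.2 in Bmal1IEC-/- mice. Over the other 5 times it lay at 124 to 218 in control mice and at 149.6 to 242 in Bmal1IEC-/- mice. No mouse outside CT13 reached the lowest CT13 value in either genotype.

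Hspd1 (ENSMUSG00000025980, chromosome 1, 55077835 to 55088243) and Hspe1 (ENSMUSG00000073676, chromosome 1, 55088132 to 55091307) encode HSP60 and HSP10, the barrel and the lid of the chaperonin in mitochondria. The genes lie head to head on chromosome 1 and overlap by 112 bases on opposite strands in GENCODE vM21; the libraries were stranded, but whether strand was used in counting is not given in the sources used here. Hspe1 ranged over 182 to 272 normalised counts by day and 245 to 514 by night in control mice, and over 205 to 383 and 229 to 418 in Bmal1IEC-/- mice. Hspd1 ranged over 999 to 1333 and 1272 to 2278 in control mice, and over 1004 to 1665 and 1201 to 1961 in Bmal1IEC-/- mice. Day and night overlapped for both genes in both genotypes.

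The cold-inducible genes Cirbp (ENSMUSG00000045193, chromosome 10, 80165985 to 80172786) and Rbm3 (ENSMUSG00000031167, chromosome X, 8138975 to 8145880) had their lowest levels at night. Cirbp was at 185, 206, 266 and 351 normalised counts at CT9 and at 64.6, 85.3, 91.2 and 115 at CT13 in control mice, with no overlap. Cirbp in Bmal1IEC-/- mice was at 189.6, 200.5, 224 and 319.6 at CT9 and at 115, 124, 124 and 149.5 at CT13, again with no overlap. By CT1 the 4 control mice were back at 220.1, 231, 244 and 297, whereas the 4 Bmal1IEC-/- mice were at 118, 143, 146 and 152, all below them. SV384 and SV385 are among these Bmal1IEC-/- mice, and without them Cirbp was not called at CT1 (edgeR adjusted p = 0.114). With them it was called, as were 24.7% of all genes there. SV471 had the highest Cirbp of the night among Bmal1IEC-/- mice, 255 at CT21.

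In group means, Rbm3 was lowest at CT21 in both genotypes, while Cirbp was lowest at CT13 in control and at CT17 in Bmal1IEC-/- mice. Rbm3 was at 619.9, 674, 797 and 801 normalised counts at CT9, at 520.1, 609, 657 and 728 at CT13 and at 353, 376, 386 and 417 at CT21 in control mice. Rbm3 in Bmal1IEC-/- mice was at 674, 697, 735 and 812 at CT9, at 688, 697, 725 and 779.6 at CT13 and at 326, 404, 445 and 579.9 at CT21. The ranges at CT9 and CT13 overlapped in both genotypes, and those at CT21 lay below both.

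**Figure D1:**
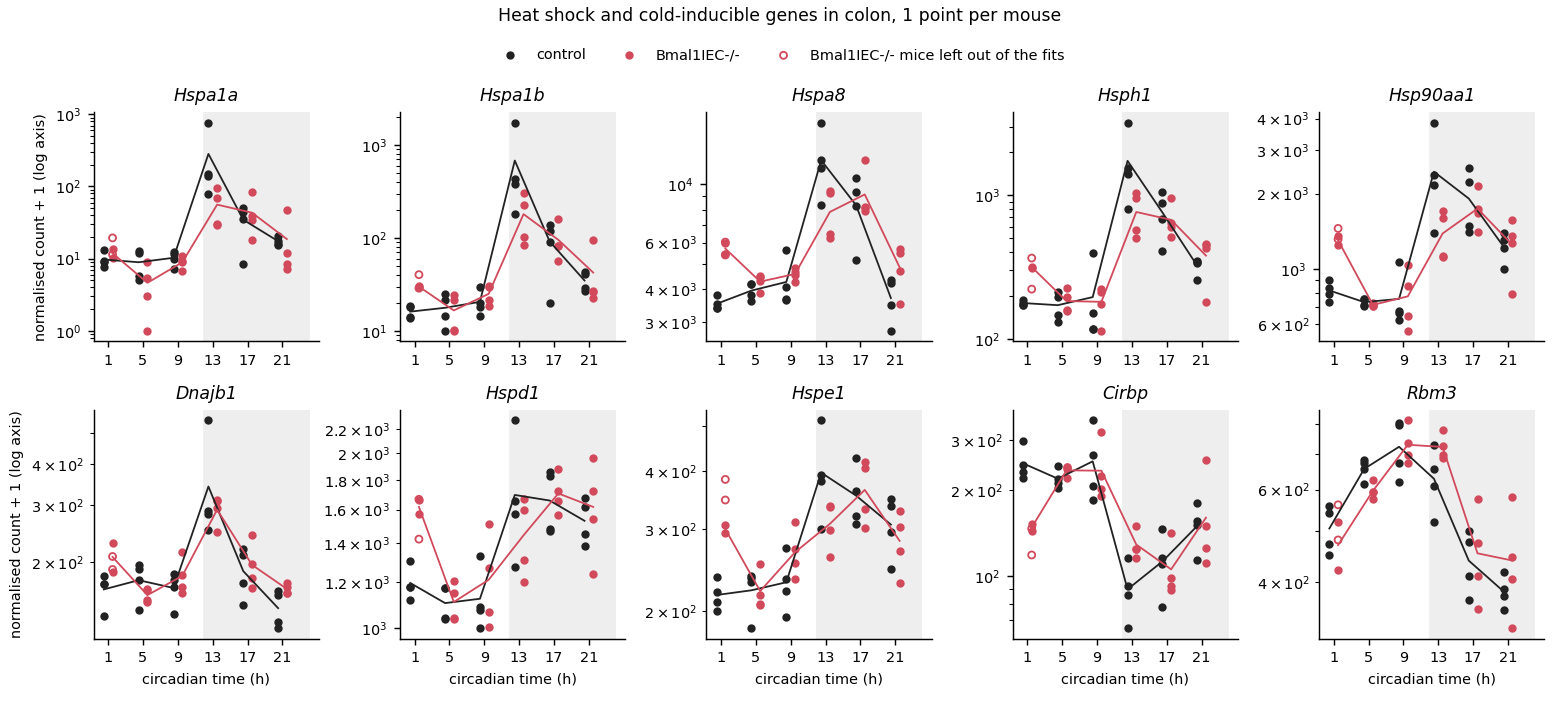
Normalised count plus 1 (log axis) of the 10 genes against circadian time in h, 1 point per mouse, black for control and red for Bmal1IEC-/-, open for the pair left out of the tests; lines join group means and grey marks the night. The group means of the 8 heat shock genes are higher at CT13 than at CT9 in both genotypes and that of Cirbp is lower, and Hspa1b reaches 1739 in 1 control mouse at CT13.

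Rhythms were tested in each genotype with JTK_cycle, an exact rank test against 24-h waves of 12 phases, with p adjusted for the phases. All 10 members were called rhythmic at 0.05 in control mice, where 24.1% of the 32471 genes with a count and 48.8% of the 15073 expressed genes were called. All 10 were also called in Bmal1IEC-/- mice, where the shares were 14.2% and 28.5%. Adjusted over all genes with a count as well (Benjamini-Hochberg), Dnajb1 was called in neither genotype (JTK_cycle adjusted p = 0.123 in control and 0.152 in Bmal1IEC-/- mice). The other members stayed called, Hspa1b in Bmal1IEC-/- mice only just (JTK_cycle adjusted p = 0.0488). The smallest p belonged to Rbm3, 2.63e-07 in control and 1.15e-05 in Bmal1IEC-/- mice (exact JTK_cycle test). The largest belonged to Dnajb1, 0.0255 and 0.014 by the same exact test, and Dnajb1 lost its call in control mice without any 1 of 5 mice, among them each of the 4 at CT13, and in Bmal1IEC-/- mice with all 48 mice (p = 0.141, exact). In control mice p was 4.6e-05 for Hspa1b, 1.76e-05 for Hspa8 and 0.00015 for Cirbp, and in Bmal1IEC-/- mice 0.0021, 0.000206 and 0.000149 (exact tests). These p-values measure the spread between separate mice.

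Night was then compared with day in each genotype in edgeR. In control mice, the 8 heat shock genes were called higher at night and the 2 cold-inducible genes lower, against 21% of all 15073 genes higher and 21.8% lower. In Bmal1IEC-/- mice, 7 heat shock genes were called higher at night and Cirbp lower, against 8.72% and 8.78% of all genes. Hspa1b differed most in control mice, with a log2 fold change (night minus day, ± SE) of 2.89 ± 0.37 (adjusted p = 4.59e-08), against 2.02 ± 0.39 (adjusted p = 0.000331) in Bmal1IEC-/- mice. Hspa1a followed with 2.64 ± 0.40 (adjusted p = 1.22e-06) and 2.35 ± 0.46 (adjusted p = 0.000438). For the HSP110 gene Hsph1 the values were 2.05 ± 0.20 (adjusted p = 9.28e-11) and 1.41 ± 0.21 (adjusted p = 1.38e-05).

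The other members had smaller night-day differences. On the same log2 scale, Hsp90aa1 was at 1.22 ± 0.12 in control and 0.69 ± 0.14 in Bmal1IEC-/- mice, and Hspa8 at 0.89 ± 0.10 and 0.55 ± 0.11. Hspe1 was at 0.65 ± 0.08 and 0.29 ± 0.09, and Hspd1 at 0.51 ± 0.08 and 0.30 ± 0.08, each called in both genotypes. Dnajb1 was called in control mice at 0.31 ± 0.10 (adjusted p = 0.00679) and missed the threshold in Bmal1IEC-/- mice at 0.23 ± 0.10 (adjusted p = 0.12). Cirbp, lower at night, was at -1.07 ± 0.12 (adjusted p = 2.34e-09) and -0.63 ± 0.13 (adjusted p = 0.000594). Rbm3 was called in control mice at -0.40 ± 0.07 (adjusted p = 2.37e-05) and missed the threshold in Bmal1IEC-/- mice at -0.17 ± 0.08 (adjusted p = 0.137), although its rhythm was called in both; its levels at CT13, a night time, were still near those of CT9. Leaving out any 1 mouse left 10 members called in control and 7 to 9 in Bmal1IEC-/- mice. Without SV424, Hspa1a was at 2.23 in control and 2.34 in Bmal1IEC-/- mice and Dnajb1 at 0.20 and 0.22, so that the smaller value in Bmal1IEC-/- mice for these genes rests on that mouse.

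**Figure D2:**
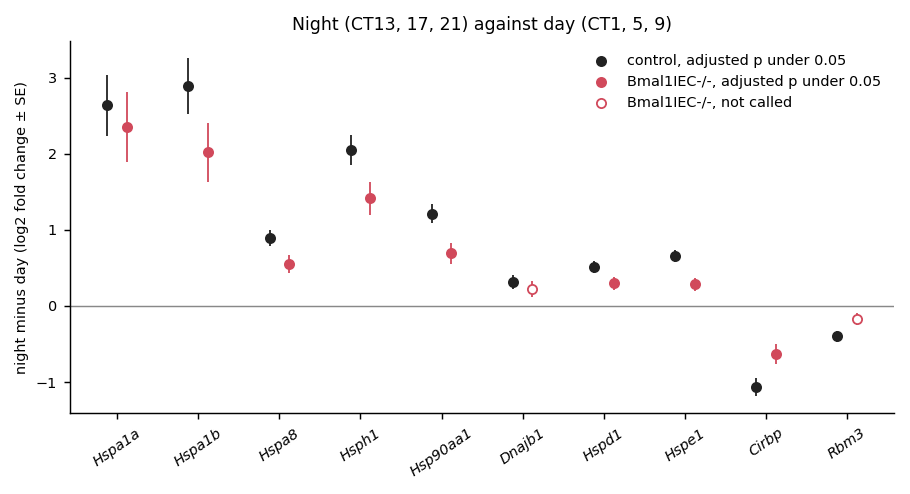
Night minus day difference of each gene (log2 fold change ± SE, edgeR), black for 24 control and red for 22 Bmal1IEC-/- mice, with open symbols where the adjusted p was 0.05 or more. The point estimate is nearer to 0 in Bmal1IEC-/- mice for all 10 genes, or for 8 without SV424, and its sign is the same in both genotypes.

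The difference between the genotypes in these night-day effects was itself tested and did not pass the threshold for any member. edgeR called 0 of 10 (0.445% of all genes), with adjusted p between 0.172 and 0.912, and 6 of 10 had an unadjusted p under 0.05, against 12.2% of all genes. DESeq2 gave the same counts, 0 adjusted and 6 unadjusted. Hspe1 was nearest, with a change of -0.37 ± 0.12 on the log2 scale (95% interval -0.60 to -0.14). Over all 48 mice it was the only member called (-0.42, edgeR adjusted p = 0.0464), against 1.27% of all genes. When genes with low counts were kept, 6 members were called, and the share of all genes in that fit is not given here. The change of the 24-h cosine, tested in edgeR with 2 degrees of freedom, was called for 0 of 10 members as well (0.935% of all genes), with 4 at an unadjusted p under 0.05 by edgeR and by DESeq2, against 10.3% of all genes in edgeR. With time as a factor, 0 were called and 7 had an unadjusted p under 0.05 (9.88% of all genes), and over all 48 mice Hspa8, Hsp90aa1, Hspe1 and Cirbp were called (3.98% of all genes).

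Genotype alone, with time in the model, was called for 0 of 10 members by edgeR (10.5% of all genes), where 1 had an unadjusted p under 0.05. DESeq2 called 0, and 0 at an unadjusted p under 0.05. Hspa1a came nearest, with a log2 fold change (Bmal1IEC-/- against control) of -0.74 ± 0.32 (adjusted p = 0.141). It was called without SV437 or without SV470, both Bmal1IEC-/- mice at night, and when genes with low counts were kept, whereas without SV424 it was at -0.29 (adjusted p = 0.4996). Hspa1b was at -0.47 ± 0.28 (adjusted p = 0.323), and at -0.06 without SV424. For the 8 members other than the HSP70 pair, the difference lay between -0.14 and 0.10, and their 95% intervals reached no further than -0.46 and 0.28.

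Compared time by time, 5 of the 60 member-by-time differences were called, all at CT13 and all lower in Bmal1IEC-/- mice. At that time 2.29% of all genes were called lower and 2.14% higher. The log2 fold change (Bmal1IEC-/- against control ± SE, edgeR) was -2.34 ± 0.48 (adjusted p = 0.00162) for Hspa1a and -1.91 ± 0.42 (adjusted p = 0.00357) for Hspa1b. It was -1.18 ± 0.31 (adjusted p = 0.0163) for Hsph1, -0.82 ± 0.21 (adjusted p = 0.0151) for Hsp90aa1 and -0.65 ± 0.18 (adjusted p = 0.0258) for Hspa8. The remaining heat shock genes, Dnajb1, Hspd1 and Hspe1, lay between -0.37 and -0.23, and Cirbp at 0.52 ± 0.22 (adjusted p = 0.186) was on the other side. These 5 calls rest on SV424, the control mouse with the highest level of every heat shock gene at CT13: without it 0 of 60 were called by edgeR, with log2 fold changes of -1.13 for Hspa1a, -0.86 for Hspa1b, -0.71 for Hsph1, -0.52 for Hsp90aa1 and -0.45 for Hspa8 and adjusted p of 0.171 to 0.264. Without Bmal1IEC-/- mouse SV448 or SV449, 2 of the 5 calls were left, those of Hspa1a and Hspa1b, and without control mouse SV396 the adjusted p of Hspa8 was 0.0592.

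At CT13 the summed epithelial markers of the 4 Bmal1IEC-/- mice lay at 14199 to 15842 CPM against 15529 to 17461 in control mice, and goblet cell markers at 14544 to 18374 against 17931 to 21957. SV424 itself had 16662 for epithelium, 3951 for smooth muscle and 629 for immune cells, inside the range of the other control mice at CT13. It had the highest sum of the 4 for goblet cells (21957), fibroblasts (1176), adipose tissue (107) and enteric neurons and glia (52.3), and also for 12 immediate early genes, with 481 against 349 to 434. The part of these in the CT13 result was not tested.

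At the other times edgeR called 0 members: at CT1 (1.21% of all genes called, 5 members and 16.3% of all genes at an unadjusted p under 0.05), CT5 (0.445%, 0 members), CT9 (1.78%, 0), CT17 (1.05%, 0) and CT21 (0.378%, 1). CT1 had 2 Bmal1IEC-/- mice in this test, and with all 4 there 5 members and 24.7% of all genes were called, Hspa8 at 0.69, Hsp90aa1 at 0.71, Hspe1 at 0.62 and Hspd1 at 0.40 higher in Bmal1IEC-/- mice and Cirbp at -0.83 lower on the log2 scale (edgeR adjusted p of 0.00158 to 0.0229). SV384 and SV385 enter only that second fit.

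**Figure D3:**
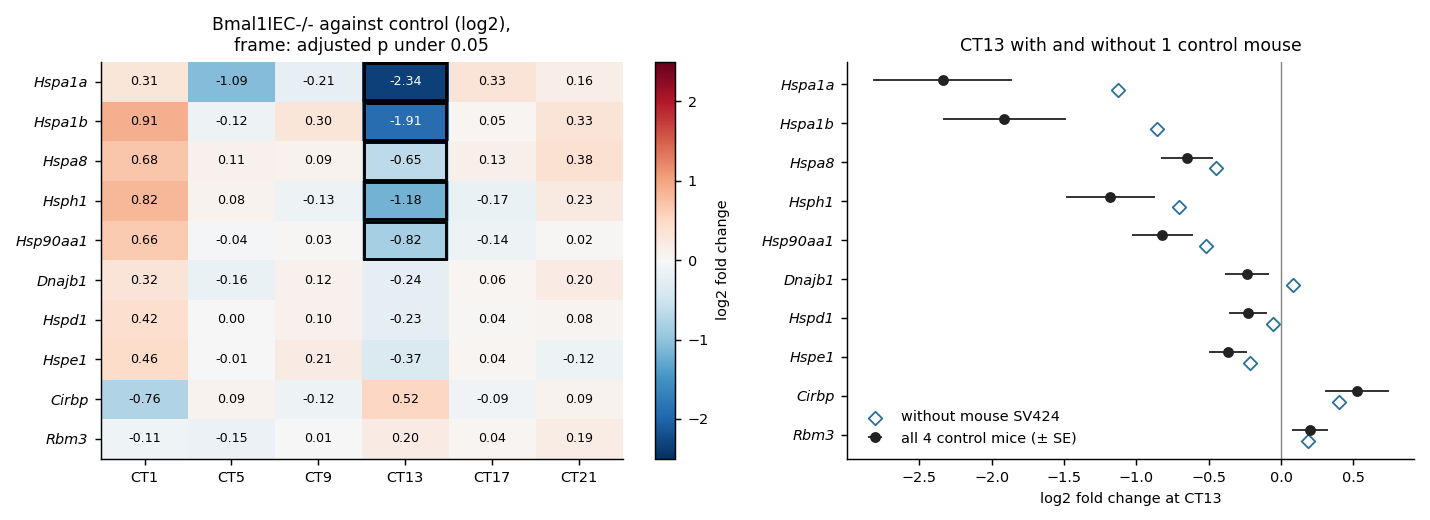
Left, log2 fold change of Bmal1IEC-/- against control mice for 10 genes (rows) at 6 circadian times (columns), red higher and blue lower in Bmal1IEC-/-, with a frame where the adjusted p was under 0.05. Right, the CT13 values on a log2 axis with SE (black) and without control mouse SV424 (open); the 5 framed values, -2.34 to -0.65, move to -1.13 to -0.45.

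The times of the peaks were read from a 24-h cosine fitted to log2(normalised count + 1). In control mice the fitted peaks of the heat shock genes lay between CT12.7 ± 1.12 h (SE) for Dnajb1 and CT16.9 ± 0.61 h for Hspd1. The highest control group mean was at CT13 for every heat shock gene. Their fitted waves covered 0.36 (Dnajb1) to 0.69 (Hsp90aa1) of the variance in control mice. Hspa8 peaked at CT14.1 ± 0.59 h, Hspa1b at CT14.6 ± 0.69 h, Hsph1 at CT15.3 ± 0.59 h and Hsp90aa1 at CT16.0 ± 0.56 h. The order of the heat shock genes among themselves was not tested. Cirbp peaked at CT3.8 ± 0.59 h and Rbm3 at CT8.3 ± 0.37 h, separate from each other and from every heat shock gene by more than their SE.

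In Bmal1IEC-/- mice all 10 fitted peaks were later than in control mice, by 0.67 to 1.93 h with a median of 1.21 h. Without SV424 the range was 0.37 to 1.47 h with a median of 1.19 h, Hspa1b moving from 0.67 to 0.37 h, Hspe1 from 0.77 to 0.44 h and Hspa1a from 1.06 to 0.68 h, and with all 48 mice it was 0.94 to 2.32 h with a median of 1.71 h (alternatives chosen after seeing the data). No single interval excluded 0: Hsp90aa1 peaked 1.76 h later (95% interval -0.01 to 3.53), Hspd1 1.93 h later (95% interval -0.12 to 3.97), Cirbp 1.58 h later (95% interval -0.28 to 3.43) and Rbm3 1.25 h later (95% interval -0.11 to 2.61). The members were measured in the same mice and are not 10 independent delays. A later peak in Bmal1IEC-/- mice was also common elsewhere: of 3414 genes rhythmic in both genotypes, 78.5% peaked later, with a median of 1.11 h and an interquartile range of 0.17 to 1.99 h.

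The fitted amplitude was lower in Bmal1IEC-/- mice for 9 of 10 members, at 0.61 to 0.95 of the control amplitude on the log2 scale, and about equal for Hspa1a at 1.01. The median ratio was 0.761 over the members and 0.812 over the 3414 genes, but the members' median was 0.855 without SV424 and 0.685 with all 48 mice. Hspa8 had a ratio of 0.606 and Hspe1 of 0.614, the lowest over the 46 mice. The amplitudes of Hspa8 were 0.83 ± 0.13 in control and 0.50 ± 0.10 in Bmal1IEC-/- mice (log2, SE), and it was the only member whose interval for the amplitude difference left out 0 (-0.646 to -0.0041). Rbm3 kept amplitudes of 0.46 ± 0.04 and 0.44 ± 0.07. Without SV424 the ratio of Hspa1a was 1.22 and that of Dnajb1 1.14, and the other 8 stayed below 1.

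**Figure D4:**
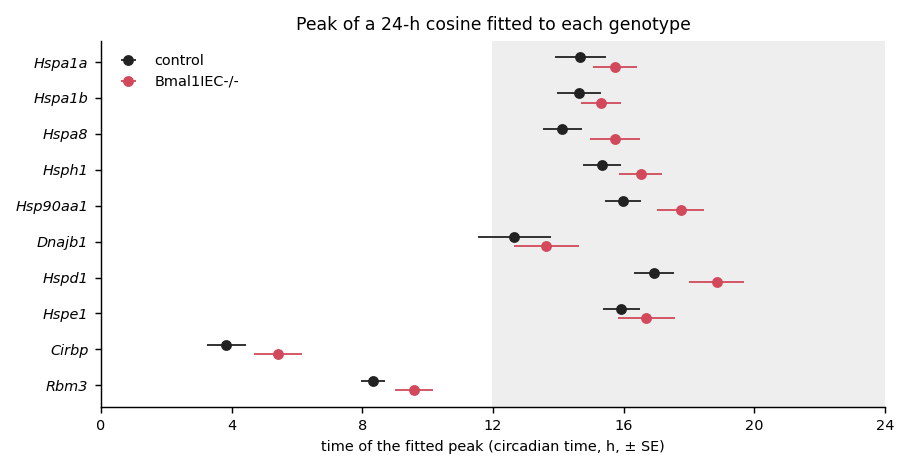
Time of the fitted peak in circadian h (± SE) of each gene, black for control and red for Bmal1IEC-/-, grey for the night. The 8 heat shock genes peak between 12.7 and 18.9 h, Cirbp at 3.84 and 5.41 h, and Rbm3 at 8.33 and 9.58 h, with the red point later in each row.

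Mice killed at the same time still differed, and the genes moved together within a mouse. Levels were taken as log2(normalised count + 1) minus the mean of the mouse's group, over 46 mice. For 6 chosen pairs of genes these levels were compared, with permutation within groups and Benjamini-Hochberg adjustment over the 6. Hsph1 and Hspa8 deviated together (r = 0.864, rho = 0.840), as did Hspd1 and Hspe1 (r = 0.839, rho = 0.844) and Hspa1a and Hspa1b (r = 0.874, rho = 0.834), each with p = 1e-05, the smallest that 100000 permutations can give, and adjusted p = 2e-05. Without the pair of mice farthest from the median of the first gene, r was 0.840, 0.808 and 0.826. Hspa1a and Hspa1b share sequence, and Hspd1 and Hspe1 overlap.

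Hsph1 and Cirbp deviated in opposite directions, with r = -0.693 (permutation p = 5e-05, adjusted p = 7.5e-05) and rho = -0.564 (permutation p = 0.00041, adjusted p = 0.000615), and r = -0.648 without SV420 and SV424. Cirbp and Rbm3 deviated together, with r = 0.553 (permutation p = 0.00561, adjusted p = 0.00673) and rho = 0.467 (permutation p = 0.00896, adjusted p = 0.0108), and r = 0.436 without SV471 and SV401 (permutation p = 0.0264). Hspa1b and its co-chaperone gene Dnajb1 gave r = 0.545 (permutation p = 0.00674, adjusted p = 0.00674) and rho = 0.346 (permutation p = 0.0346, adjusted p = 0.0346). Without SV424 and SV417, r was 0.335 (permutation p = 0.0948), so that relation rests on those mice.

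In 5 mice all 8 heat shock genes lay above the group mean, and Cirbp lay below it in 4 of them and above it in 1, the Bmal1IEC-/- mouse SV395. In 6 mice all 8 lay below the group mean, and Cirbp lay above it in 4 and below it in SV449 and SV481. The widest were SV424 at CT13, by a median of 0.75 on the log2 scale with Cirbp at -0.43, SV421 at CT13, at -0.62 with Cirbp at 0.39, and SV471 at CT21, at -0.53 with Cirbp at 0.75. These mice are named after their values were seen.

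**Figure D5:**
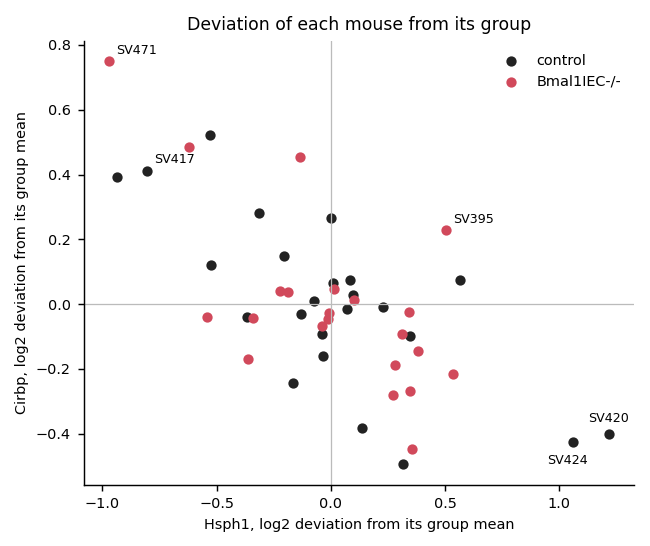
Deviation of each of 46 mice from its group mean in Cirbp against that in Hsph1, both on the log2 scale, black for control and red for Bmal1IEC-/-. Most mice lie along a negative relation (r = -0.693), and some, SV395 among them, lie off it.

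Other genes of protein folding gave the wider picture. Among 33 other cytosolic chaperones and co-chaperones, all 33 passed the filter, and 24 were called rhythmic in control, 20 in Bmal1IEC-/- and 19 in both, against 48.8%, 28.5% and 3414 genes over all 15073. Night was higher than day for 23 in control and 18 in Bmal1IEC-/- mice and lower for 0, and the median night minus day log2 fold change was 0.43 and 0.34, against -0.01 and 0.00 over all genes. Fkbp5, an HSP90 partner of steroid receptors that glucocorticoids induce, peaked at CT13 with a peak over trough of 4.50-fold in control and 2.31-fold in Bmal1IEC-/- group means. Dnaja1, an HSP40, had 4.18-fold and 2.39-fold, and Chordc1, an HSP90 co-chaperone, 3.12-fold and 1.98-fold. At CT13, 7 of the 33 were called lower in Bmal1IEC-/- mice, against 2.29% of all genes. Among them were Stip1 at -0.74 and Hsp90ab1 at -0.51 on the log2 scale (edgeR adjusted p of 0.00673 and 0.00976). These calls use the same control mice as the members, SV424 among them, and their values without SV424 are not given here.

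Chaperones of the endoplasmic reticulum fold secreted proteins. Of 16, 15 were called rhythmic in control, 15 in Bmal1IEC-/- and 15 in both, against 48.8% and 28.5% of all genes in control and Bmal1IEC-/- mice. In these genotypes 15 and 13 were higher at night, against 21% and 8.72% of all genes. Hyou1 peaked at CT17 with 2.85-fold and 2.84-fold between peak and trough group means in control and Bmal1IEC-/- mice, Hspa5, which encodes BiP, with 2.698-fold and 2.47-fold, and Creld2 with 2.45-fold and 2.53-fold. Of the 8 subunits of the cytosolic chaperonin TRiC, 5 were rhythmic in control and 4 in Bmal1IEC-/- mice with folds between group means for Cct3 of 1.44 and 1.41, Cct7 1.34 and 1.24 and Cct8 1.31 and 1.19. Of 10 mitochondrial chaperones and proteases, 6 and 2 were rhythmic. These and the TRiC counts come from few genes, were not tested against the 48.8% and 28.5% of all genes, and are a description. The protease subunit gene Clpp had 1.93-fold and 1.23-fold, Grpel1 1.35-fold and 1.24-fold and Dnaja3 1.32-fold and 1.22-fold. Clpp and Grpel1 were not called rhythmic in Bmal1IEC-/- mice, where their folds are only the range of group means. In that list 5 of 10 were called higher in Bmal1IEC-/- mice over all times, by 0.08 to 0.15 on the log2 scale, and 0 were lower, against 4.83% of all genes higher.

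Of 16 genes whose splicing is known to respond to temperature, 15 were tested, and 7 were rhythmic in control and 3 in Bmal1IEC-/- mice, at the level of whole-gene counts, shares near or below those of all genes. Srsf6 peaked at CT1 with 1.63-fold and 1.45-fold, Tra2a at CT13 with 1.59-fold and 1.69-fold, and Clk4 had 1.30-fold and 1.29-fold. Tra2a and Clk4 were not called rhythmic in Bmal1IEC-/- mice, where their folds are only the range of group means. Of 12 immediate early genes, which respond to acute stimulation, 11 were tested and 5 and 4 were rhythmic, again near the shares of all genes. Between peak and trough group means, Egr1 had 4.77-fold and 3.26-fold, Junb 4.01-fold and 1.95-fold and Ier3 3.56-fold and 1.70-fold. Egr1, Junb and Ier3 were not called rhythmic in Bmal1IEC-/- mice, where their folds are only the range of group means. Of 17 core clock genes, 16 and 12 were rhythmic, and the change of rhythm between genotypes was called in 9, against 0.935% of all genes. Nr1d1, which encodes REV-ERBalpha, had 40.0-fold in control and 27.3-fold in Bmal1IEC-/- mice, Dbp 39.6-fold and 7.61-fold and Ciart 33.0-fold and 8.07-fold.

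The genes most like the members were found by Spearman's rho over the 46 mice among the expressed genes outside the group. Stip1, the adaptor that joins HSP70 and HSP90, was most like Hsph1 (rho = 0.934), followed by Dnaja1 (0.909) and Cacybp (0.908). For Hspa1b these were Arhgap39 (0.874), Fkbp4 (0.865), an HSP90 co-chaperone, and Josd1 (0.864). For Cirbp they were the pseudogene Cyp2d37-ps (0.908), Zc3h4 (0.903) and Slc9a8 (0.901), and for Rbm3 they were Gm9860 (0.853), Capn9 (0.830) and Gbe1 (0.823). Between members, rho was -0.917 for Hsph1 and Cirbp, 0.379 for Cirbp and Rbm3 and -0.310 for Hsph1 and Rbm3. These values take in the shared circadian times and are a description.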

How the data were processed

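RNA of whole colon from 48 mice was sequenced from stranded mRNA libraries. Per the labels and methods, the authors trimmed reads with Trimmomatic 0.39, aligned them to mm10 with STAR 2.7.5c and counted exon reads with a mapping quality of 4 or more in featureCounts 1.4.6, leaving out reads that overlapped several features. They deposited raw read counts per gene, with 3144997 to 4785844 counts per mouse, and low counts limit the precision for Hspa1a and Hspa1b in the day. The deposited tables of the authors' own comparisons were not used for results.

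Groups came from the genotype and time in the labels, which give no batch. The counts were tested with the quasi-likelihood test of edgeR 4.0.16 (TMM, filterByExpr, 15073 genes kept, R 4.3.3) with Benjamini-Hochberg adjustment over all genes and a threshold of 0.05. Models were genotype plus time, night against day within genotype, genotype within time, and genotype by 24-h cosine. JTK_cycle was computed exactly in Python 3.11.15 with 12 phases, and cosines were fitted by least squares to log2(normalised count + 1). Scripts were tested on simulated data. Named list genes were the 3 with the largest range of group means among those rhythmic in control mice. The members and lists were chosen with earlier results of these data known. Alternatives were all 48 mice, each mouse left out, DESeq2 1.42.0 and its size factors, no filter, and Hspa1a plus Hspa1b summed.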

Additional observations from a re-analysis of the deposited data

Results flagged for a closer look

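Dixon's test was run for the 10 genes in each of the 11 groups with 4 mice, and in 11 of these 110 sets 1 mouse stood apart from the other 3. Chance gives about 1 in 20, but the genes were measured in the same mice and move together, so the sets are not independent. Hspa1a was at 764 normalised counts in SV424 at CT13 (control), against 77.6 to 147 in the other mice of that group. Hspa1a was at 46.4 normalised counts in SV470 at CT21 (Bmal1IEC-/-), against 6.12 to 10.9 in the other mice of that group. Hspa1b was at 1739 normalised counts in SV424 at CT13 (control), against 179.9 to 425 in the other mice of that group. Hspa1b was at 93.6 normalised counts in SV470 at CT21 (Bmal1IEC-/-), against 21.4 to 25.6 in the other mice of that group. Hspa8 was at 12332 normalised counts in SV437 at CT17 (Bmal1IEC-/-), against 7884 to 8191 in the other mice of that group. Hsph1 was at 394 normalised counts in SV420 at CT9 (control), against 117 to 150.3 in the other mice of that group. Hsph1 was at 257 normalised counts in SV434 at CT21 (control), against 338 to 350.1 in the other mice of that group. Hsph1 was at 180.4 normalised counts in SV471 at CT21 (Bmal1IEC-/-), against 429 to 455 in the other mice of that group. Hsp90aa1 was at 1066 normalised counts in SV420 at CT9 (control), against 622 to 675 in the other mice of that group. Dnajb1 was at 546 normalised counts in SV424 at CT13 (control), against 250.3 to 287 in the other mice of that group. Hspe1 was at 182 normalised counts in SV446 at CT5 (control), against 229 to 237 in the other mice of that group. SV424 accounted for 3 of these values, and SV420 and SV470 for a pair each. Over the 46 mice with the filter on low counts, no member's difference between genotypes in the cosine or the night-day effect passed its test.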

How the results depend on the processing

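The number of members called was 10 in control and 7 to 9 in Bmal1IEC-/- mice for night against day, and 9 to 10 and 10 for rhythms, whichever mouse was left out. Members different between genotypes numbered 0 to 1 when a mouse was left out and 1 when genes with low counts were kept. The night-day difference changed between genotypes for 1 member with all 48 mice (1.27% of all genes) and for 6 without the filter, and for 0 with any mouse left out. Of the 60 differences by time, 10 were called with all 48 mice, 5 at CT1 (24.7% of all genes) and 5 at CT13 (3.58%). The number was 15 without the filter and 0 to 6 with a mouse left out, with 0 without SV424 and 2 without SV448 or SV449. With time as a factor and all 48 mice, an alternative chosen after seeing the data, 4 members had a changed rhythm. The cause of the higher counts without the filter was not tested, and the shares of all genes called without it are not given here. No direction of a called value reversed. No paired analysis was possible because each mouse has its own number and no number is shared between groups. Hspa1a and Hspa1b had few counts by day, and CT1 had 2 Bmal1IEC-/- mice in the tests.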
